A study of Mus musculus with 9 samples.

Results

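The genes described here are 10 regulators and markers of the pluripotent state, Pou5f1, Nanog, Sox2, Sall4, Dppa4, Tdgf1, Klf2, Klf4, Zfp42 and Esrrb, followed as mouse embryonic stem cells became cardiomyocytes. They were chosen by name, and each probe set annotated to 1 of them alone was taken, which gave 14 of the 45037 probe sets measured and 10 of the 18193 genes they name. The study profiled total RNA on Affymetrix arrays from cultures aged 10, 20 or 30 days, and each age was read on 3 arrays. All 9 cultures came from synp, a line made from R1 stem cells of 129X1 x 129S1 background. In this line the Ncx1 (Slc8a1) promoter drives PAC, which confers puromycin resistance, and Ncx1 is the sodium-calcium exchanger of heart muscle. Cardiac fate was induced with FGF10, bFGF, VEGF, BMP4 and Activin A, and from day 7 puromycin was added to remove cells other than cardiomyocytes. The arrays therefore describe 1 line under selection by the activity of 1 promoter, and undifferentiated cells were not analysed here. Whether other cells remained after the selection was not tested. The labels do not say whether the 3 arrays of a day came from separate differentiations, so p-values measure the spread between these arrays, which may be technical.

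Pluripotency is held by a small circuit of transcription factors. Pou5f1 (Oct4) and Sox2 bind DNA as a pair, Nanog stabilises the circuit, and Sall4, Esrrb, Klf2 and Klf4 act beside them. Zfp42 (Rex1) and Dppa4 are markers of the undifferentiated state, and Tdgf1 (Cripto) is the membrane co-receptor through which Nodal signals, with a further known role in the early specification of the heart. Several members work outside stem cells too: Klf2 in endothelium under flow, Klf4 in epithelia, endothelium and smooth muscle, Sall4 in heart and limb development, and Esrrb relatives in the energy metabolism of muscle.

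Stem cell factors bind upstream of several of these genes, their own included, and the windows of 5 of them are shown: Pou5f1, Sox2, Nanog and Zfp42, which belong to the core or are known targets of it, and Klf2, the member that moved the other way. Each window holds the 250 bases before the gene's start in RefSeq's table for GRCm38.p6, 5′ to 3′ on the strand of the gene. The positions are chr17:35505782-35506031 (plus strand) for Pou5f1, chr3:34649745-34649994 (plus) for Sox2, chr6:122707239-122707488 (plus) for Nanog, chr8:43307010-43307259 (minus) for Zfp42 and chr8:72318812-72319061 (plus) for Klf2. Capitals mark matches, on either strand, to TTTGCAT (the octamer core that Pou5f1 family factors bind), CATTGT and CTTTGT (a first and a second SOX motif) and CCACCC (a KLF motif).
Pou5f1: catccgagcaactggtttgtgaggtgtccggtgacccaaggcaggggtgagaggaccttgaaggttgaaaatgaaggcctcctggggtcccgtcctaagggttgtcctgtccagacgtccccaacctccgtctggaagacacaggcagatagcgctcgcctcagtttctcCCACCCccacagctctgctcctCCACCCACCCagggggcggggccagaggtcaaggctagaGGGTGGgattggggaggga
Sox2: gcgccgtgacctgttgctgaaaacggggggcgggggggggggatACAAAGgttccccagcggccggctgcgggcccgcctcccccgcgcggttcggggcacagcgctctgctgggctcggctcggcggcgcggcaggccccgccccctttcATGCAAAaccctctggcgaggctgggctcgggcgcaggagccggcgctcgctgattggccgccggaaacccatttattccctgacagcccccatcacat
Nanog: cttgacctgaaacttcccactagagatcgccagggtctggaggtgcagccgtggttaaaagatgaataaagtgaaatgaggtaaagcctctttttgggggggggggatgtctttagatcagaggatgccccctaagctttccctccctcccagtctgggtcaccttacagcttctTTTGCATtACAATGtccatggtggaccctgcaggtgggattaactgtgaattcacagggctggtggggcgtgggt
Zfp42: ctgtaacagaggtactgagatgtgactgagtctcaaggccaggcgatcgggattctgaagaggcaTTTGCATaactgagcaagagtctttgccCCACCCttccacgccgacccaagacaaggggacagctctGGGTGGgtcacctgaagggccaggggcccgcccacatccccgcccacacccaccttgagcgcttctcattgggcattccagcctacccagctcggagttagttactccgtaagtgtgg
Klf2: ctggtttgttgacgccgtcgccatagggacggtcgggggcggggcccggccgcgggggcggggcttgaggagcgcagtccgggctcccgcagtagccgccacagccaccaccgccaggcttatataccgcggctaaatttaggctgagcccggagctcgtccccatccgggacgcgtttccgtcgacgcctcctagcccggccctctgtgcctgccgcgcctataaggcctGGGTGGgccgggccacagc
The Nanog window holds the octamer core 75 to 69 bases before the start and, on the reverse strand, the first SOX motif 67 to 62 bases before it. The Sox2 window holds the octamer core on the reverse strand 99 to 93 bases before the start and the second SOX motif, also reversed, 206 to 201 bases before it. The Zfp42 window holds the octamer core 185 to 179 bases before the start and the KLF motif at 2 positions. The Pou5f1 window has 4 matches to the KLF motif, of which those at 58 to 53 and 54 to 49 bases before the start overlap, and the Klf2 window has 1, on the reverse strand 19 to 14 bases before the start. Among all 32851 windows of this length in the table, 4.12% held the octamer core, 10.7% the first SOX motif, 16.5% the second and 28.1% the KLF motif. A core that Esrrb binds, AAGGTCA, stood in 4.08% of all windows and in none of the members' windows. Of the member windows left out above, that of Esrrb has 1 match to the KLF motif, and those of Tdgf1 and Klf4 have no match to any of the 5 motifs. The table had a window for 8 of the 10 genes, and Sall4 and Dppa4 had no entry. These are letter matches in a reference genome and no measurement of binding.

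Marker genes of heart muscle were bright in all 9 libraries. The 13 measured cardiomyocyte markers (Myh6, Tnnt2, Actn2 and others) had mean levels of 11.60 to 12.42 on the log2 scale at day 10, 12.02 to 12.42 at day 20 and 12.24 to 12.48 at day 30. All levels and differences below are on this scale, and the values on the arrays ran from 2.775 to 14.52. Array medians lay between 5.48 and 5.56 and the 10th percentile of each array lay at 3.64 to 3.67. A level near that percentile is close to the bottom of the range, and a difference that ends there may understate the true ratio. The day 10 arrays were the most unlike each other, with a lowest pairwise correlation of 0.966 over all probe sets, against 0.986 at day 20 and 0.984 at day 30. Poly-A control spikes averaged 5.92, 5.05 and 4.90 on the day 10 arrays, 5.94 to 6.33 at day 20, and 5.63 to 5.91 at day 30. The 18S rRNA controls averaged 10.3 on day 30 replicate 2, against 12.1 to 13.4 on the other arrays. The 3′ minus 5′ difference of the actin controls was 0.79 on that array, against 0.23 to 0.59 on the others. The part of these controls in the results was not tested.

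All 14 probe sets stood above the 10th percentile of their arrays at day 10, and 6 of the 10 genes were lower by day 20. Pou5f1, Sox2, Sall4, Dppa4, Tdgf1 and Zfp42 fell, Klf2 rose, and Nanog, Klf4 and Esrrb did not pass the test at any interval. Both Klf4 probe sets passed at day 30 relative to day 20 (adjusted p = 0.043) only in limma on those arrays paired by replicate number. That alternative was chosen after seeing the data and called 159 of all 45037 probe sets. With the number as a block on all 9 arrays, 0 of the 14 passed between those days. At day 20 relative to day 10, 7 of the 14 probe sets (6 genes) were lower and 1 was higher at an adjusted p below 0.05 by limma, while 4.51% of all 45037 probe sets were called lower and 4.51% higher, 9.02% in all. At day 30 relative to day 10, the counts were again 7 lower and 1 higher, beside 7.73% of all probe sets lower and 7.4% higher, 15.1% in all. Between day 20 and day 30, 0 of the 14 passed in limma, where 0.135% of all probe sets did (0.129% higher and 0.00666% lower). At an unadjusted p below 0.05 that last interval called 2 of the 14, for Klf2 and Klf4, beside 9.32% of all probe sets. The median difference over the 14 was −0.72 at day 20 relative to day 10, where all probe sets had −0.04, and −0.03 at day 30 relative to day 20, where all had −0.01. In these bulk cultures fewer cells of a type and less RNA per cell cannot be told apart.

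**Figure D1:**
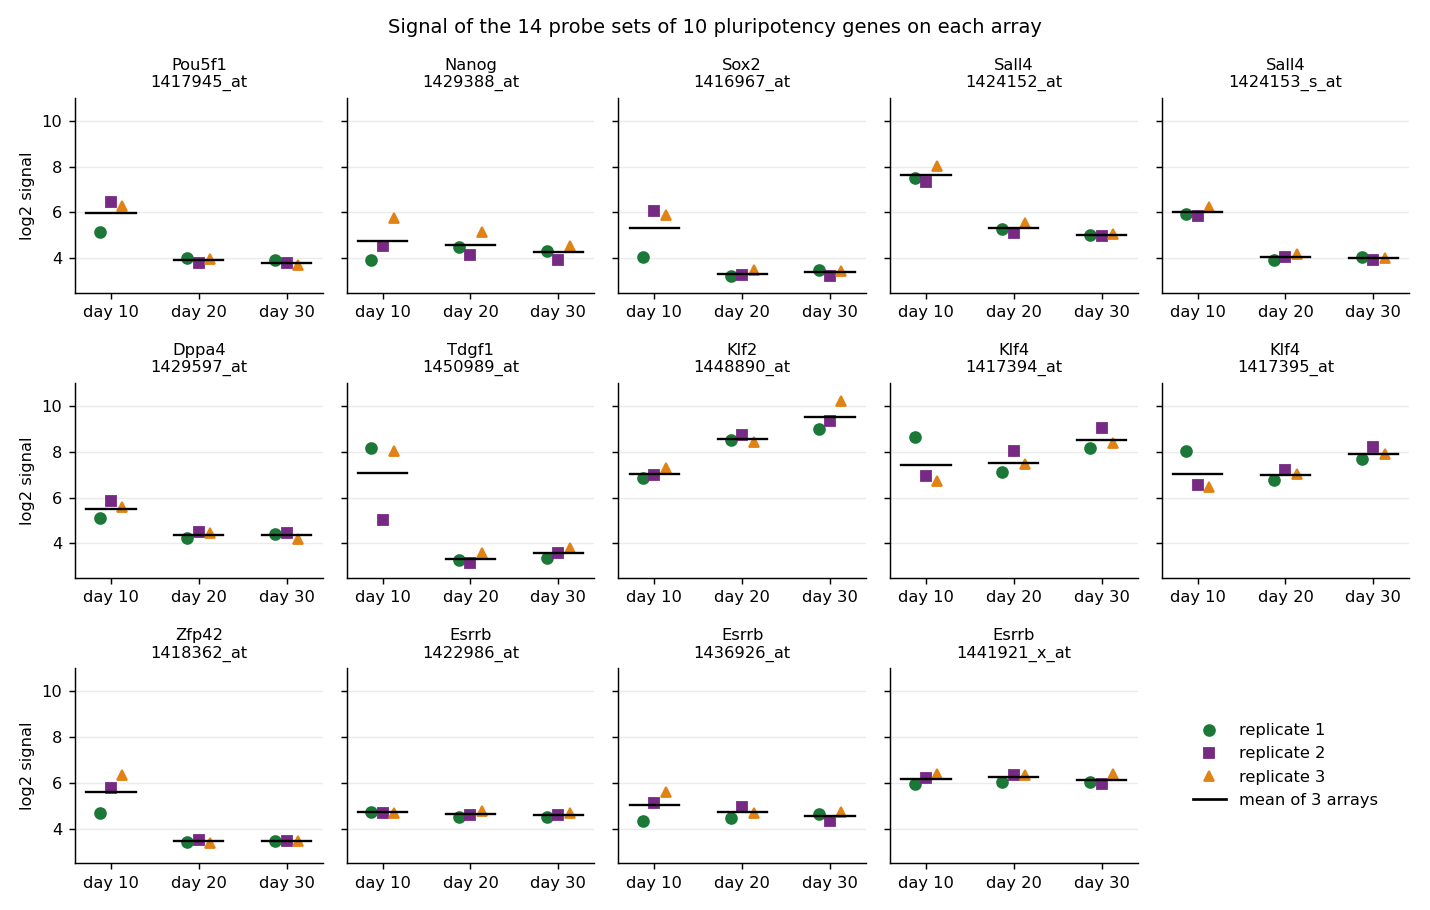
Log2 signal of each of the 14 probe sets on each of the 9 arrays, by day of culture (day 10, day 20, day 30), with the mean of each day as a bar and each replicate number as its own marker. Pou5f1, Sox2, Sall4, Dppa4, Tdgf1 and Zfp42 lie low on every day 20 and day 30 array, while Klf2 climbs to 10.2 on its highest day 30 array.

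Pou5f1, the POU factor without which no pluripotent cells form, fell about 4-fold within the first interval. Its probe set 1417945_at had levels of 5.15, 6.47 and 6.30 on the day 10 arrays, 4.01, 3.78 and 3.95 at day 20, and 3.93, 3.78 and 3.69 at day 30. Every day 20 and day 30 array was below every day 10 array, and day 20 and day 30 overlapped. The difference was −2.06 at day 20 relative to day 10 (SE 0.305, adjusted p = 0.0077), a 4.17-fold lower signal. At day 30 relative to day 10 it was −2.17 (95% interval −2.87 to −1.47, adjusted p = 0.0034). The step between day 20 and day 30 was −0.11 (95% interval −0.81 to 0.59, adjusted p = 0.95). RefSeq's table lists 7 pseudogenes of Pou5f1, 2 of Nanog, 2 of Tdgf1 and 1 of Zfp42, and whether their transcripts reach these probes was not tested.

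Sox2, the HMG-box partner of Pou5f1, fell by a like amount but less evenly. It had levels of 4.05, 6.07 and 5.89 at day 10, 3.24, 3.25 and 3.47 at day 20, and 3.47, 3.23 and 3.44 at day 30. Replicate 1 of day 10 stood close to the later arrays, although still above all 6 of them, and all later values were under the 10th percentile of their arrays. The difference was −2.02 at day 20 relative to day 10 (SE 0.461, adjusted p = 0.034) and −1.96 at day 30 relative to day 10 (adjusted p = 0.026). These calls rested on single arrays. The day 20 call was lost without day 10 replicate 2 and without any single day 20 or day 30 array (values −2.66 to −1.65, adjusted p up to 0.11), and the day 30 call without day 10 replicate 2 or any day 30 array (adjusted p up to 0.078). Fits of only the 2 days compared lost both (adjusted p = 0.092 at day 20 and 0.076 at day 30).

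Nanog did not move beyond its spread. Its levels were 3.93, 4.55 and 5.77 at day 10, 4.48, 4.14 and 5.13 at day 20, and 4.30, 3.91 and 4.55 at day 30. The 3 ages overlapped, and the highest array of each day was replicate 3. The difference at day 30 relative to day 10 was −0.49, with a 95% interval of −1.53 to 0.54 (adjusted p = 0.53), so a fall as large as that of Dppa4 lies within the interval and that of Pou5f1 does not. It was 0.014 without day 10 replicate 3, the array on which Nanog was highest.

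Sall4, a zinc finger factor of the stem cell circuit that is also needed for heart development, fell with the smallest adjusted p-values of the 14 probe sets. Probe set 1424152_at had levels of 7.50, 7.33 and 8.04 at day 10, 5.29, 5.12 and 5.54 at day 20, and 5.03, 4.96 and 5.05 at day 30. Probe set 1424153_s_at gave 5.92, 5.83 and 6.24 at day 10, 3.94, 4.05 and 4.20 at day 20, and 4.04, 3.93 and 4.02 at day 30. All later arrays lay below all day 10 arrays in both, and over the 9 arrays the pair had a Pearson correlation of 0.994, as a description of 2 probe sets on the same libraries. For 1424152_at the difference was −2.31 at day 20 relative to day 10 (SE 0.185, adjusted p = 0.00071) and −2.61 at day 30 relative to day 10 (adjusted p = 0.0002). For 1424153_s_at it was −1.94 at day 20 relative to day 10 (SE 0.123, adjusted p = 0.00026) and −2.0 at day 30 relative to day 10 (adjusted p = 0.00011).

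The timing of the Sall4 fall could be tested directly. For 1424153_s_at the difference was −1.94 from day 10 to day 20 and −0.06 from day 20 to day 30, so the later fall was the smaller. Its mean levels of 4.06 at day 20 and 4.0 at day 30 lay near the lower end of the signal range, whose part was not tested. The later change minus the earlier one was 1.87 (95% interval 1.38 to 2.36, adjusted p = 0.028 by limma). This probe set was 1 of the 14 past the threshold in this test, beside 0.133% of all probe sets (0.04% in this direction and 0.0933% in the other). The call was lost without any single day 20 or day 30 array (adjusted p 0.062 to 0.19) and remained without each day 10 array. For 1424152_at the same difference was 2.0 and did not pass (adjusted p = 0.071). It passed without day 10 replicate 3 (adjusted p = 0.0086), where 2903 of all probe sets passed, and with array weights, where 2780 did. It also passed with dim probe sets left out and by the brightest or the mean probe set per gene. All 3 of its day 30 arrays were below all day 20 arrays, the single probe set of the 14 in that order. Its step between those days, −0.30, did not pass (adjusted p = 0.70), and 9.51% of all probe sets showed that separation.

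Dppa4, a chromatin protein that partners Dppa2 in stem cells, fell by the smallest amount of the 6 genes. Its levels were 5.12, 5.83 and 5.60 at day 10, 4.24, 4.49 and 4.44 at day 20, and 4.41, 4.46 and 4.20 at day 30. The later ages overlapped each other and lay wholly below day 10. The difference was −1.13 at day 20 relative to day 10 (SE 0.179, adjusted p = 0.0097) and −1.16 at day 30 relative to day 10 (adjusted p = 0.0048).

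Zfp42, the zinc finger marker known as Rex1, was among the dimmest signals after day 10. It had 4.66, 5.75 and 6.32 at day 10, 3.43, 3.50 and 3.38 at day 20, and 3.48, 3.48 and 3.46 at day 30. The 6 later arrays lay between 3.38 and 3.50, under the 10th percentile of their arrays. The difference was −2.14 at day 20 relative to day 10 (SE 0.347, adjusted p = 0.01) and −2.11 at day 30 relative to day 10 (adjusted p = 0.0062). The calls of Pou5f1, Sall4, Dppa4 and Zfp42 in both comparisons with day 10 remained without each of the 9 arrays in turn.

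**Figure D2:**
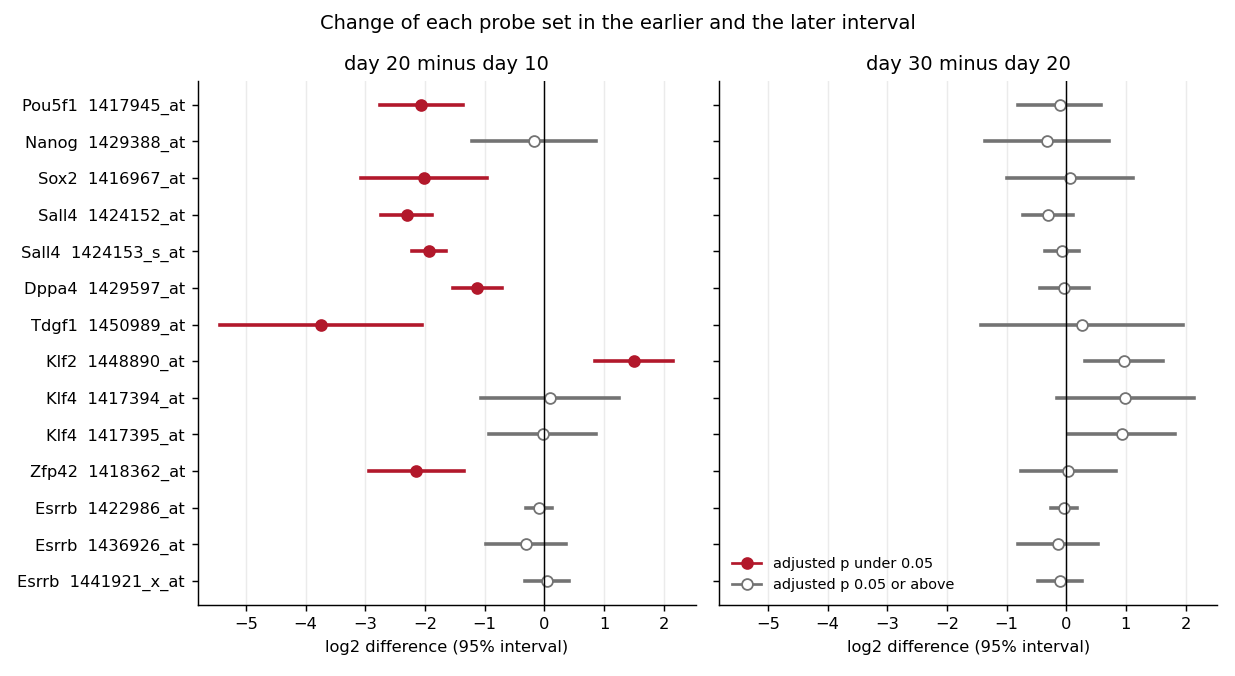
Log2 difference of each probe set with its 95% interval, for day 20 minus day 10 (left) and day 30 minus day 20 (right), from limma over 45037 probe sets, with filled red points for an adjusted p under 0.05. The intervals of the 7 falling probe sets lie below 0 on the left and include 0 on the right, where the value for Klf2 is 0.97.

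Tdgf1 had the largest difference of the 14 probe sets and the widest spread. Its levels were 8.19, 5.01 and 8.03 at day 10, 3.28, 3.13 and 3.60 at day 20, and 3.36, 3.60 and 3.82 at day 30. Replicate 2 of day 10 was about 3 log2 units below the others of that day and still above every later array. The difference was −3.74 at day 20 relative to day 10 (SE 0.738, adjusted p = 0.02), a 13.4-fold lower signal, and −3.48 at day 30 relative to day 10 (95% interval −5.17 to −1.78, adjusted p = 0.017). The day 20 call was lost without day 10 replicate 1 or any day 20 array (adjusted p up to 0.077) and in a fit of those 2 days alone (adjusted p = 0.067), and array weights moved its value to −2.35. The day 30 call was lost without day 30 replicate 1 or 2 (adjusted p 0.057 and 0.051), in a fit of those 2 days alone (adjusted p = 0.058) and with array weights, which gave −2.11 (adjusted p = 0.051).

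Among the genes of the Nodal and Cripto pathway besides Tdgf1, 15 of 18 listed were measured, 3 fell and 1 rose at day 30 relative to day 10, while 8.91% of all genes fell and 10.3% rose. Their median difference was −0.06. Nodal, the ligand, had 6.19, 5.40 and 5.28 at day 10, 4.32, 4.69 and 4.83 at day 20, and 4.32, 4.68 and 4.63 at day 30, a difference of −1.08 at day 30 relative to day 10 (adjusted p = 0.024). Foxh1, the DNA-binding partner of activated Smad proteins, fell by 0.68 (adjusted p = 0.015), and the type II receptor Acvr2b fell by 1.5 (adjusted p = 0.022). Lefty1, a secreted inhibitor of Nodal, rose by 0.77 (adjusted p = 0.0027), with 7.14, 7.03 and 6.97 at day 30, against 6.31, 6.35 and 6.16 at day 10. The Nodal and Acvr2b calls were lost without any single day 30 array, and the Foxh1 call without day 30 replicate 1 or 3, and the mean of the Foxh1 probe sets gave −1.51. A fit of day 10 and day 30 alone lost all 3 of these falls and called 1 of the 15, the rise of Lefty1. The Nodal call was also lost with a replicate block. Without single arrays, 1 of the 15 (without day 30 replicate 1 or 3) to 5 (without day 10 replicate 3) passed. The median over the 15 ranged from −0.25 to −0.01.

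Klf2, a Krüppel-like factor of the naive stem cell state that is also induced by flow in endothelium, went the other way. Its levels were 6.84, 7.00 and 7.28 at day 10, 8.50, 8.71 and 8.42 at day 20, and 8.98, 9.36 and 10.2 at day 30. Every array of an age was above every array of the age before it. The difference was 1.5 at day 20 relative to day 10 (SE 0.284, adjusted p = 0.018) and 2.47 at day 30 relative to day 10 (95% interval 1.82 to 3.12, adjusted p = 0.0015), a 5.55-fold higher signal. The step from day 20 to day 30 was 0.97 with a 95% interval of 0.32 to 1.62, and it did not pass after adjustment (adjusted p = 0.32). It was 0.62 without day 30 replicate 3. The day 20 call was lost without day 10 replicate 1 or 2 or any day 20 array (adjusted p up to 0.072), while the day 30 call remained without each array (adjusted p up to 0.007).

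Klf4, the reprogramming factor that also acts in epithelia and smooth muscle, was bright throughout and did not pass. Probe set 1417394_at had 8.64, 6.96 and 6.72 at day 10, 7.10, 8.02 and 7.48 at day 20, and 8.16, 9.03 and 8.38 at day 30. Probe set 1417395_at had 8.05, 6.54 and 6.48 at day 10, 6.75, 7.22 and 7.02 at day 20, and 7.67, 8.20 and 7.91 at day 30. In both, replicate 1 of day 10 stood more than 1 log2 unit above the other arrays of its day, and all day 30 arrays were above all day 20 arrays. Klf2 and the Klf4 pair were the 3 of 14 probe sets separated that way, beside 9.52% of all probe sets. The difference at day 30 relative to day 10 was 1.08 for 1417394_at (adjusted p = 0.19) and 0.90 for 1417395_at (adjusted p = 0.17). Without day 10 replicate 1 these were 1.68 (adjusted p = 0.019) and 1.41 (adjusted p = 0.005). Replicate numbers were taken to pair the day 20 and day 30 arrays from their values, since the labels do not say what the numbers mark. With the number as a block on those 6 arrays, both Klf4 probe sets were higher at day 30 than at day 20 (adjusted p = 0.043). Klf2 was not called (adjusted p = 0.15), and 159 of all probe sets passed. This alternative was chosen after seeing the data, and with the block on all 9 arrays 0 of the 14 passed.

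Of the other Klf family genes, 14 of 15 were measured, 2 rose and 0 fell in limma at day 30 relative to day 10, a share near the 10.3% of all genes called higher. Klf15, a regulator of metabolism in adult heart, rose by 1.79 (adjusted p = 0.010) and the glucocorticoid-responsive Klf9 by 1.41 (adjusted p = 0.026). The Klf9 call was lost without day 10 replicate 1 or 2 or any day 30 array, and the family's calls ranged from 1 (without day 10 replicate 1 or 2 or any day 30 array) to 4 (without day 10 replicate 3). The 18 measured genes known for quick induction by serum or shear, which also induce Klf2 and Klf4 in other cells, had mean levels of 7.74, 6.76 and 7.49 at day 10, 7.86, 8.48 and 8.47 at day 20, and 7.95, 9.62 and 9.67 at day 30. Egr1, a zinc finger factor of that group, had 10.1, 8.25 and 8.08 at day 10, so its highest day 10 array was the one on which Klf4 was highest. The 17 endothelial markers had mean levels of 5.27 to 6.17 at day 10, 5.40 to 5.62 at day 20 and 5.60 to 5.76 at day 30. The part of these genes in the Klf2 and Klf4 values was not tested.

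Esrrb, the orphan nuclear receptor of the naive stem cell state, gave no call on any of its 3 probe sets. Probe set 1422986_at had 4.72, 4.70 and 4.69 at day 10, 4.49, 4.59 and 4.77 at day 20, and 4.50, 4.58 and 4.66 at day 30. Its day 30 arrays were all below its day 10 arrays, by a difference of only −0.12 (adjusted p = 0.43). Probe set 1436926_at had 4.35, 5.10 and 5.59 at day 10, and between 4.34 and 4.96 on the later arrays (−0.44 at day 30 relative to day 10, adjusted p = 0.37). Probe set 1441921_x_at ranged from 5.96 to 6.38 over all arrays. The 3 probe sets had pairwise correlations of 0.318, 0.484 and 0.730 over the 9 arrays.

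In the comparisons with day 10, separation of the arrays gave the same order as the calls, with 1 addition. At day 30, 8 of the 14 probe sets had all arrays below those of day 10, the 7 called ones and Esrrb 1422986_at, beside 18.5% of all probe sets, and 1 had all above, beside 13.5%. At day 20, 7 lay wholly below day 10, beside 16.4% of all probe sets, and 1 wholly above, beside 11.7%.

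The day 10 arrays did not rank the genes alike. Replicate 1 was the lowest day 10 array for Pou5f1, Sox2, Nanog, Dppa4, Zfp42 and Klf2 and the highest for Klf4 and Tdgf1. Replicate 2 was the lowest for Tdgf1 and for both Sall4 probe sets. Over the 9 arrays the correlations of Pou5f1 were 0.982 with Dppa4, 0.981 with Zfp42, 0.976 with Sox2 and 0.939 with Sall4, while that of Sall4 with Tdgf1 was 0.915 and that of Pou5f1 with Klf2 was −0.839. These describe values that share 9 libraries and the step after day 10, which sets most of their size. Other network genes, picked after their values were seen, lay on both sides of this split: Dppa5a, L1td1 and Fbxo15 were lowest on replicate 1 among the day 10 arrays, and Lin28a, Trim71 and Nodal highest on it.

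**Figure D3:**
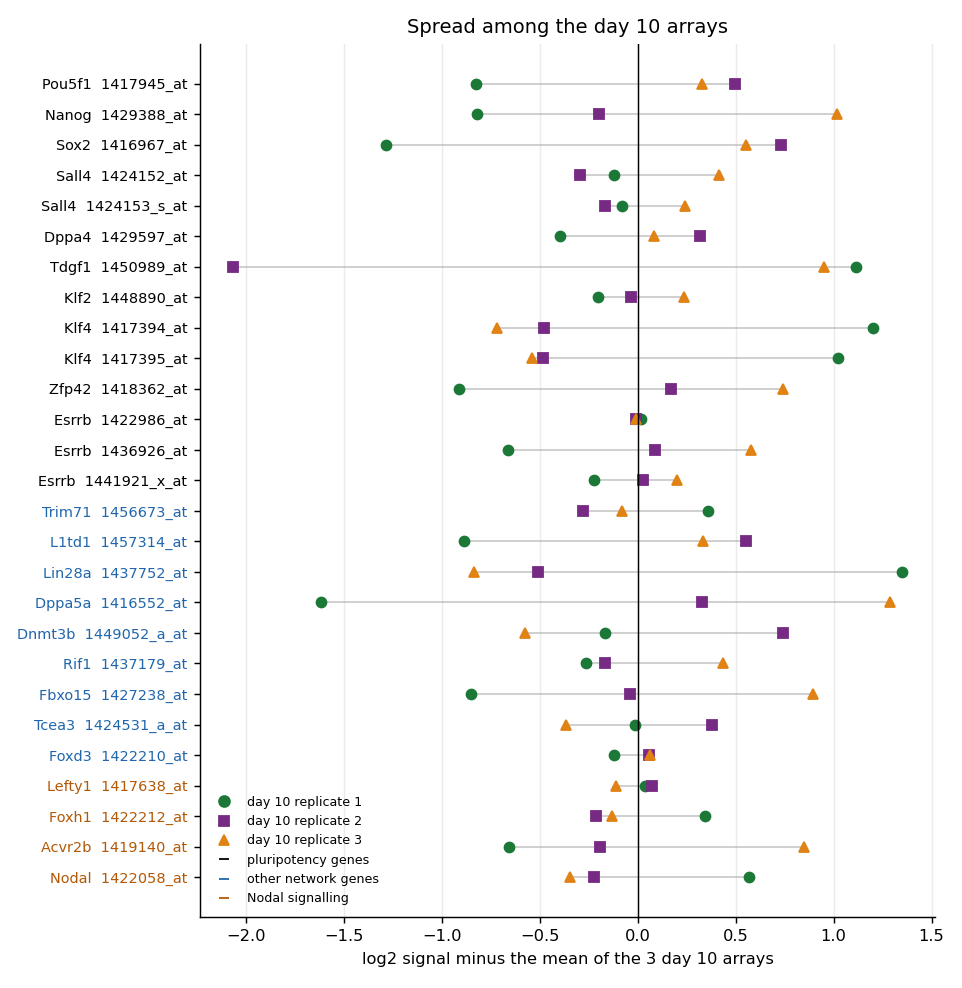
Deviation of each day 10 array from the mean of the 3 day 10 arrays, on the log2 scale, for the 14 pluripotency probe sets and for the other network and Nodal pathway genes called at day 30 relative to day 10. Replicate 1 lies left of 0 for Pou5f1, Sox2, Nanog, Zfp42, L1td1, Dppa5a and Fbxo15 and right of 0 for Tdgf1, Klf4, Lin28a, Trim71 and Nodal.

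Beyond the 10 genes, 28 of 30 other genes of the network were measured. Of these, 8 fell and 0 rose at day 20 relative to day 10 in limma, beside 5.3% of all genes lower and 6.31% higher. At day 30 relative to day 10, 8 fell and 1 rose, beside 8.91% of all genes lower and 10.3% higher. The median difference of the 28 at day 30 relative to day 10 was −0.37. Without single arrays, 4 (without day 30 replicate 1 or 3) to 14 (without day 10 replicate 1) of the 28 passed at day 30. Trim71, an RNA-binding ubiquitin ligase, fell by 3.25 (adjusted p = 6.1e-05), with 4.44, 4.71 and 4.79 at day 30, against 8.26, 7.62 and 7.82 at day 10. Lin28a, which blocks maturation of let-7, fell by 2.57 (adjusted p = 0.011), with 3.24, 3.47 and 3.41 at day 30, against 7.29, 5.43 and 5.10 at day 10. The mean of the Lin28a probe sets gave −1.42. Dppa5a, a stem cell RNA-binding protein, fell by 3.19 (adjusted p = 0.011), with 5.09, 5.02 and 5.17 at day 30, against 6.66, 8.61 and 9.57 at day 10. All day 30 arrays of these 3 genes, which were already called, lay below all day 10 arrays, a separation that 18.5% of all probe sets showed.

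L1td1, an RNA-binding protein of stem cells, fell by 2.0 (adjusted p = 0.0061). The de novo DNA methyltransferase Dnmt3b fell by 1.44 (adjusted p = 0.020) and the replication timing factor Rif1 by 0.77 (adjusted p = 0.026), and both calls were lost without day 30 replicate 1 or 3. The remaining genes set for description did not pass at day 30 relative to day 10. Fgf4, a growth factor gene driven by Pou5f1 and Sox2, had a difference of −0.33 (adjusted p = 0.057), and Dppa2, the partner of Dppa4, −0.47 (adjusted p = 0.053). Both fell at day 20 relative to day 10, Fgf4 by 0.49 (adjusted p = 0.022) and Dppa2 by 0.55 (adjusted p = 0.043). The Fgf4 call was lost without day 10 replicate 1 or 2 or day 20 replicate 2 or 3. It was also lost by the mean of the Fgf4 probe sets (adjusted p = 0.054) and with an intensity trend and robust prior (adjusted p = 0.06). The Dppa2 call was lost without day 10 replicate 2 or any day 20 or day 30 array. It was also lost in a fit of those 2 days alone (adjusted p = 0.096) and with a replicate block (adjusted p = 0.066). Named after their values were seen, the remaining calls were falls of Fbxo15 by 1.49 and Foxd3 by 0.34 and a rise of Tcea3 by 0.79. Utf1 had −0.39, Dppa3 −0.32 and Nr0b1 −0.24. Tfcp2l1, a factor of the naive state, had 0.80 (adjusted p = 0.060), or 0.24 as the mean of its probe sets.

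Relatives of the members by family (other Sall, Esrr, Sox and Dppa genes) gave 2 falls and 0 rises among 13 of 15 measured, by limma at day 30 relative to day 10, with a median of −0.32, where 8.91% of all genes were lower. They were Dppa5a and Sall1, a Sall family factor of kidney and limb that fell by 1.17 (adjusted p = 0.048). The Sall1 call was lost with array weights, which gave −0.75, and without day 10 replicate 1 or 3, day 20 replicate 1 or 2, or day 30 replicate 1 or 2. The list shares Dppa2, Dppa3 and Dppa5a with the network list, so the counts are not separate. From 1 (without day 20 replicate 1 or 2 or day 30 replicate 1 or 2) to 3 (without day 10 replicate 1) passed without single arrays.

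Markers of other cells that could carry these genes are given beside them, with 10.3% of all genes called higher and 8.91% lower in the same comparison. Of 9 measured germ cell markers 1 fell, Tfap2c by 0.39 (adjusted p = 0.034), a call lost without 8 of the 9 arrays in turn, and their mean level was 4.02 to 4.16 at day 30, against 4.41 to 4.60 at day 10. Of 10 measured neural progenitor markers 2 fell, Nes by 1.26 (adjusted p = 0.025) and Fabp7 by 0.55 (adjusted p = 0.015), with mean levels of 4.72 to 5.01 at day 30, against 5.11 to 5.58 at day 10. The Nes call was lost without any day 30 array and with array weights, which gave −0.81, and the Fabp7 call without day 30 replicate 3. Of 11 endoderm and epithelial markers, Krt18 fell by 4.18 (adjusted p = 0.0091) and Krt8 by 3.58 (adjusted p = 0.0063), and the adhesion gene Epcam, which stem cells also express, rose by 1.49 (adjusted p = 0.0022). Krt18 had 10.8, 7.20 and 8.27 on the day 10 arrays, highest on replicate 1. The Epcam rise rests on its brightest probe set, since the mean of its probe sets had a difference of −0.0014. The part of these markers in the members' values was not tested.

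The fibroblast and matrix markers had the largest median difference of the lists, 3.57, and the proliferation genes the lowest, −2.03. In limma at day 30 relative to day 10, 10.3% of all genes were called higher and 8.91% lower. Of 14 fibroblast markers 12 rose and 0 fell in that comparison, with mean levels of 10.65 to 10.80 at day 30, against 6.67 to 7.37 at day 10. Examples are the collagen gene Col1a1, up by 6.28 (adjusted p = 0.00018), and the proteoglycan gene Dcn, up by 6.73 (adjusted p = 0.00024), or by 4.01 as the mean of its probe sets. Of 11 measured proliferation genes 3 fell, among them the replication licensing gene Mcm2 by 2.23 (adjusted p = 0.014), with mean levels of 7.31 to 8.42 at day 30, against 8.57 to 10.67 at day 10. That count came to 0 when day 30 replicate 1 was left out and to 11 when day 10 replicate 3 was, and the Mcm2 call was lost without day 30 replicate 1. Of 13 cardiomyocyte markers 1 rose, a share near the 10.3% of all genes called higher. It was the mature troponin gene Tnni3, up by 2.85 (adjusted p = 0.0012), and from 1 to 4 of the 13 passed without single arrays (4 without day 10 replicate 3). The part of these shifts in the fall of the pluripotency genes was not tested.

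**Figure D4:**
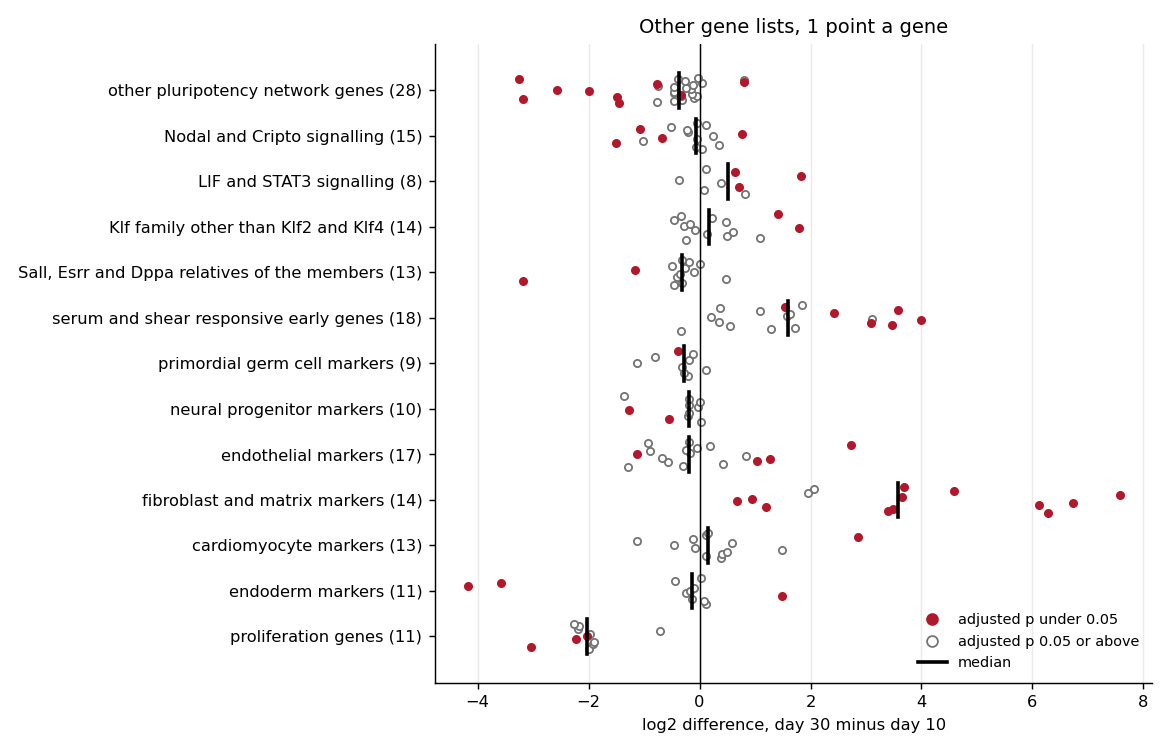
Log2 difference at day 30 minus day 10 of each measured gene of the other lists, 1 point a gene, with filled red points for an adjusted p under 0.05, a bar at each list's median and the number of measured genes in brackets. The other network genes have a median of −0.37 with 8 filled points below 0, and the fibroblast and matrix markers a median of 3.57.

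The genes whose values followed a member most closely over the 9 arrays were picked by Pearson correlation among genes that spanned at least 2 log2 units. For Pou5f1 they were L1td1, Bves, Ropn1l, Dppa5a and Dock9, with correlations of 0.972 to 0.990. For Sall4 they were Arid3b, Prtg, Hmga2, Tagln3 and Trim71 (0.979 to 0.992), and for Tdgf1 Cttnbp2nl, Nes, Itgb3, Prag1 and Mgat5b (0.958 to 0.983). For Klf2 they were Cbr2, Adamtsl3, Art4, Comp and Sqor (0.953 to 0.958). The lists share no gene, and each value describes 9 libraries in 3 ages.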

How the data were processed

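Expression was measured in 9 samples, 3 at each of 3 ages, on Affymetrix arrays. The deposited values are on a log2 scale, as judged from their range, since the authors' normalization and log base were not stated in any source at hand, and no call of signal above background was used. Total RNA was taken up in TRIzol and labelled with an Affymetrix 3' IVT kit, per the labels' protocols. Of 45101 probe sets, 64 array controls were left out and 45037 were tested with no further normalization. Names came from the platform annotation: 34958 probe sets had 1 gene symbol, 932 several and 9211 none. Only probe sets with 1 symbol were named.

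Differences were computed with limma 3.58.1 in R 4.3.3 (lmFit with 1 mean per day over all 9 arrays, then eBayes, two-sided) and p-values adjusted by Benjamini-Hochberg over all 45037 probe sets, with a threshold of 0.05. The steps were tested on simulated data. Counts of genes use each gene's probe set with the highest mean. Every member probe set is named, together with 8 network genes whatever their values and the 5 genes most correlated with each of 4 members. Unless said otherwise, the called genes named from each other list are among its first 6 in order of adjusted p. For the fibroblast, proliferation and early gene lists only some of those are given. The members, lists and rule were chosen with earlier results of these data known. Depth has no counterpart on arrays, and the number of arrays limits the precision.

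Replicate numbers come from the labels, which do not say what they mark. Deviations from the day means correlated by 0.188 to 0.505 between same-numbered day 20 and day 30 arrays (3 pairs), and by −0.22 to 0.152 between day 10 and later arrays (6 pairs), so the numbers were taken to pair days 20 and 30 alone. Alternatives were quantile normalization, median centring, leaving out dim probe sets, the brightest or the mean probe set per gene, an intensity trend with a robust prior, array weights, fits of only 2 days, a replicate block, a minimum difference of 1, and each array left out in turn.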

Additional observations from a re-analysis of the deposited data

Results flagged for a closer look

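The later change of Sall4 differed from the earlier one. For probe set 1424153_s_at the difference at day 30 relative to day 20 (−0.06) exceeded that at day 20 relative to day 10 (−1.94) by 1.87, with a 95% interval of 1.38 to 2.36 and an adjusted p of 0.028 by limma. This call was lost without any single day 20 or day 30 array. The other Sall4 probe set gave 2.0 and did not pass (adjusted p = 0.071). It passed in some alternatives, among them limma without day 10 replicate 3 (adjusted p = 0.0086). The mean levels of 1424153_s_at were 6.0 at day 10, 4.06 at day 20 and 4.0 at day 30, and the 10th percentile of the arrays lay at 3.64 to 3.67. The part of the lower end of the signal range in this difference was not tested.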

How the results depend on the processing

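The 8 of 14 called at day 20 relative to day 10 ranged from 5 to 8 without single arrays, the 8 at day 30 relative to day 10 from 6 to 10, and the 0 between day 20 and day 30 from 0 to 0. Leaving out dim probe sets lowered both counts of 8 to 2, because only 5 member probe sets remained to be tested. Over all probe sets, single arrays moved the counts as follows: 4062 at day 20 relative to day 10 ranged from 1427 to 8493, 61 at day 30 relative to day 20 from 6 to 98, 6813 at day 30 relative to day 10 from 4168 to 9163, 60 for the later against the earlier change from 0 to 2903, and 5353 for any day from 2941 to 9012. In that order, array weights gave 10899, 279, 11501, 2780 and 12056. Fits of only 2 days gave 2105, 5 and 4318 for the first 3. Testing 1 probe set per gene gave 2545, 3841 and 3189 by the brightest probe set, and 2370, 3760 and 3049 by the mean, for day 20 and day 30 relative to day 10 and for any day, while it gave 61 and 49 at day 30 relative to day 20 and 87 with either for the later against the earlier change. Requiring a difference of 1 left 1842 at day 20 and 2948 at day 30 relative to day 10. Leaving out dim probe sets gave 152 for the later against the earlier change, and the intensity trend gave 106 there and 102 at day 30 relative to day 20. The causes of these shifts were not tested unless stated. With the replicate block on all arrays, 2 probe sets passed at day 30 relative to day 20, 3837 at day 20 and 6444 at day 30 relative to day 10, 51 for the later against the earlier change and 4717 for any day, and the members' counts stayed at 8, 0 and 8. With the block on the paired day 20 and day 30 arrays only, an alternative chosen after seeing the data, 159 passed, 2 of them member probe sets.

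Signs turned only for small differences without a call, apart from Epcam (−0.0014 by the mean of its probe sets). At day 20 relative to day 10, array weights gave 0.085 for Nanog and 0.26 for Klf4 1417395_at, and the mean of the probe sets gave −0.12 for Esrrb. Without single arrays the difference at day 20 relative to day 10 ranged from −0.58 to 0.34 for Nanog, −0.27 to 0.69 for Klf4 1417394_at, −0.30 to 0.48 for Klf4 1417395_at and −0.061 to 0.16 for Esrrb 1441921_x_at. At day 30 relative to day 20 it ranged from −0.13 to 0.0052 for Sall4 1424153_s_at, −0.11 to 0.048 for Dppa4 and −0.10 to 0.040 for Esrrb 1422986_at. At day 30 relative to day 10 it ranged from −0.90 to 0.014 for Nanog and −0.19 to 0.043 for Esrrb 1441921_x_at.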

Other observations

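The genes of LIF and STAT3 signalling, the pathway that holds mouse stem cells undifferentiated in culture, were all measured. Of the 8, 3 rose and 0 fell in limma at day 30 relative to day 10, beside 10.3% of all genes higher and 8.91% lower, with a median difference of 0.51. Socs3, the feedback inhibitor that STAT3 induces, rose by 1.83 (adjusted p = 0.023), with 7.89, 9.11 and 8.82 at day 30, against 6.61, 6.30 and 7.41 at day 10. The kinase gene Jak2 rose by 0.71 (adjusted p = 0.021) and Stat3 by 0.63 (adjusted p = 0.040). The count was 0 without day 10 replicate 2 or day 30 replicate 2, and the Stat3 call was lost without any single array other than day 10 replicate 3. Jak2 lost its call without day 10 replicate 1 or 2 or day 30 replicate 2, and Socs3 without day 10 replicate 1 or 2 or day 30 replicate 2 or 3.

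Of the 18 measured early genes that cells induce within minutes of serum or shear, 6 rose, 0 fell and 12 did not pass in limma at day 30 relative to day 10, beside 10.3% of all genes higher, with a median difference of 1.60. Egr1 had 11.3, 12.6 and 13.0 at day 30, against 10.1, 8.25 and 8.08 at day 10, a rise of 3.47 (adjusted p = 0.0075). The AP-1 gene Junb rose by 3.58 (adjusted p = 0.0097) and Ier3 by 2.43 (adjusted p = 0.0056). Fos rose by 3.99 (adjusted p = 0.041), a call lost without any single array other than day 30 replicate 1. The count was 3 without day 10 replicate 2 or day 30 replicate 2 and 11 without day 30 replicate 1, the day 30 array on which these genes were lowest.

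The 17 endothelial markers gave 3 rises and 1 fall at day 30 relative to day 10, shares near the 10.3% of all genes called higher and 8.91% called lower. The anticoagulant receptor gene Thbd, a target of Klf2 in endothelium, rose by 2.73 (adjusted p = 0.033), the ETS factor Erg by 1.27 (adjusted p = 0.017, or by 0.73 as the mean of its probe sets) and the TGF-beta co-receptor Eng by 1.04 (adjusted p = 0.044), while the VEGF receptor Kdr fell by 1.13 (adjusted p = 0.021). Each of these 4 calls was lost without at least 1 of the day 30 arrays, and the count was 0 when day 30 replicate 3 was left out and 6 when day 10 replicate 1 was.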
